A study of Sus scrofa with 4 samples.

Results

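The BCL2 family decides whether a cell keeps its mitochondrial outer membrane intact or lets it be pierced. Described here are 10 of its genes, picked by their role with earlier results of these data known. They are the antiapoptotic genes BCL2, BCL2L1 and MCL1, the effectors BAX and BAK1, and the BH3-only genes BCL2L11, BMF, BID, BBC3 and PMAIP1. All 10 had a row in the table of 29884 gene symbols, and all 10 were tested. RNA was sequenced from granulosa cells, which surround the oocyte inside the follicle, of pig (Sus scrofa) antral follicles. After flow cytometry of the cell cycle the remaining cells were put in 2 groups by their share in G0/G1, the stage before DNA synthesis, and the labels give no treatment, genotype or age for either. The groups are 2 libraries with a high and 2 with a low G0/G1 share, and the labels do not say whether libraries of 1 group are from different animals. A p-value therefore reflects the spread among these 4 libraries, which may be technical. The study's title places FOXO1, TP53INP1 and CDKN1A in a path to cell cycle arrest under hypoxia.

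The antiapoptotic proteins bind and restrain the effectors BAX and BAK1, which otherwise form pores and release cytochrome c into the cytosol, where it activates caspases through APAF1. BH3-only proteins sense stress and either occupy the antiapoptotic proteins or activate the effectors directly. In the ovary, granulosa cell death is the hallmark of follicle atresia, the loss of most follicles before ovulation. Much of the control of this family acts on the protein (cleavage of BID, rapid turnover of MCL1, phosphorylation of BIM), which RNA levels do not show.

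Library totals ran from 27442850 to 32674921 counts, and each level below is a CPM value, a count set against its TMM-scaled library size. Where a gene has a pair of values for a group, replicate 1 comes before replicate 2. The granulosa genes FSHR, FOXL2, AMH and INHA had counts in each library. The listed aromatase gene CYP19A1 was at 0 in all 4, while its paralog CYP19A3 had between 1142 and 3984 CPM. Low replicate 2 stood apart by RNA of other cell types. The 9 markers of stroma and smooth muscle summed to 121 and 156 CPM in high replicates 1 and 2, against 55.6 and 1612 CPM in low replicates 1 and 2, with 7 of the 9 highest in low replicate 2. The 3 theca markers summed to 53.4 and 87.9 CPM in high G0/G1 cells, against 94.7 and 335 CPM in low G0/G1 cells. Endothelial markers summed to 56.1 and 60.5 CPM in the high libraries and to 64.0 and 81.3 CPM in the low ones. Leukocyte markers summed to at most 6.0 CPM, CD52 at 0 throughout, and in bulk RNA fewer cells of a type and less RNA per cell cannot be told apart.

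The family was split evenly between high and low G0/G1 cells, and the split ran through each functional class but the effectors. By log2 fold change 5 members were higher (MCL1, BCL2L11, BMF, BBC3 and PMAIP1) and 5 lower (BCL2, BCL2L1, BAX, BAK1 and BID) in high G0/G1 cells. BMF and BCL2L11 had the largest positive log2 fold changes of the 10, and BID and BAK1 the largest negative ones. Of the 10 members 0 passed an adjusted p under 0.05 by edgeR's quasi-likelihood test, as was the case for 0% of the 14352 genes tested. At an unadjusted p under 0.05 edgeR had 1 member higher and 2 lower, where 9.92% of all genes tested were higher and 10.8% lower, together 20.7%. DESeq2 called these same 3 genes after adjustment, BMF higher and BID and BAK1 lower. Of the 13239 genes to which DESeq2 gave an adjusted p, it called 5.79% higher and 5.48% lower, together 11.3%. The median log2 fold change of the 10 members was 0.21, against -0.0090 over all genes tested.

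**Figure D1:**
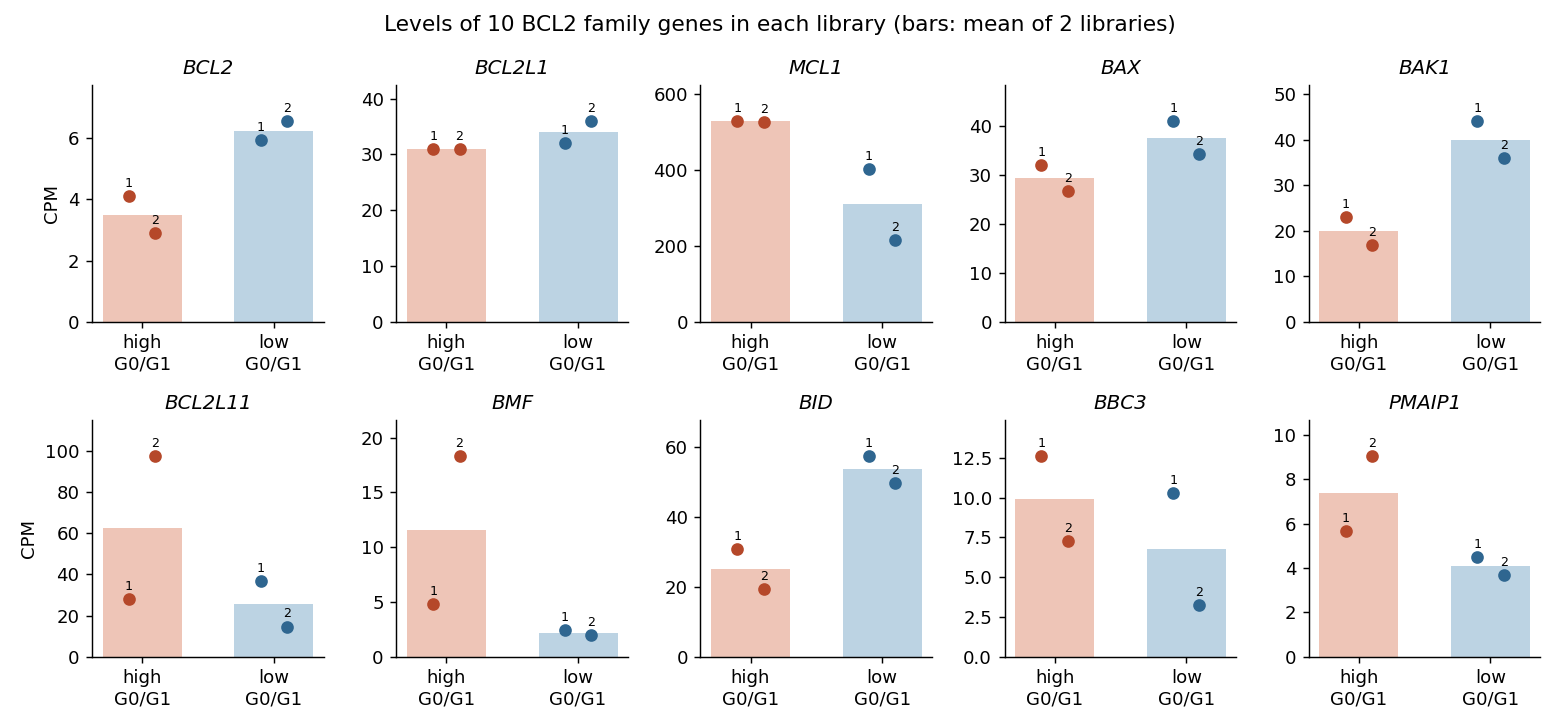
CPM of each of the 10 genes, on a linear axis that starts at 0 and differs between panels. Points are single libraries numbered by replicate and bars are the means of the 2 libraries of a group, high G0/G1 on the left and low G0/G1 on the right. BMF and BCL2L11 reach 18.3 and 97.8 CPM in high replicate 2, while BAK1 and BID lie lower in both high libraries.

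Among the antiapoptotic genes, MCL1 was higher and BCL2 lower in both high G0/G1 libraries, and BCL2L1 differed little. MCL1 (chromosome 4, 98562092 to 98567014 in Sscrofa11.1) encodes a short-lived protein that restrains BAK1 and BIM. It had 528 and 527 CPM in high G0/G1 cells, against 403 and 215 CPM in low G0/G1 cells. The 2 high libraries were nearly equal, and the groups did not overlap because even the larger of the low values lay below them. The log2 fold change was 0.77 ± 0.35 (SE, edgeR adjusted p = 0.279), and it was 0.40 without low replicate 2, the library rich in stromal RNA, and 1.36 without low replicate 1.

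BCL2 (chromosome 1, 158337403 to 158518214), the founding member, had 4.09 and 2.91 CPM in high G0/G1 cells, against 5.93 and 6.55 CPM in low G0/G1 cells. These levels rest on 122 and 83 counts in the high libraries and on 189 counts in each low library. Both high libraries lay below both low ones, with a log2 fold change of -0.83 ± 0.41 (SE, edgeR adjusted p = 0.310) and a 95% interval from -1.87 to 0.21. BCL2L1 (chromosome 17, 35366139 to 35415798), whose main protein product is BCL-XL, was the steadiest member. It had 31.0 and 31.1 CPM in high G0/G1 cells, against 32.0 and 36.0 CPM in low G0/G1 cells, so the groups did not overlap although its highest library was only 1.16 times its lowest. Its log2 fold change of -0.13 ± 0.21 (SE, edgeR adjusted p = 0.756) had a 95% interval from -0.67 to 0.41. The RefSeq annotation gives BCL2L1 12 transcripts. Since BCL2L1 is known to be spliced into a long antiapoptotic and a short proapoptotic form, a count per gene does not tell these apart.

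Both effectors were lower in high G0/G1 cells, BAK1 by more than BAX. BAK1 (chromosome 7, 29808849 to 29815345), which resides in the mitochondrial outer membrane, had 23.0 and 16.9 CPM in high G0/G1 cells, against 44.0 and 35.8 CPM in low G0/G1 cells. The group means were 20.0 ± 4.35 and 39.9 ± 5.81 CPM (SD, n = 2 each), a gap wider than the spread within either group. BAK1 had the smallest unadjusted p of the 10 members, at rank 1063 of 14352 genes, with a log2 fold change of -1.0 ± 0.27 (SE, edgeR adjusted p = 0.176). DESeq2 gave an adjusted p of 0.0477, and an adjusted p of 0.0232 without high replicate 1. With the others left out in turn DESeq2 gave 0.304 (high replicate 2), 0.681 (low replicate 1) and 0.375 (low replicate 2).

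BAX (chromosome 6, 54222341 to 54228150), which sits in the cytosol until it is activated, had 31.9 and 26.6 CPM in high G0/G1 cells, against 41.0 and 34.2 CPM in low G0/G1 cells. The groups did not overlap, but high replicate 1 and low replicate 2 were close together. Its log2 fold change was -0.36 ± 0.24 (SE, edgeR adjusted p = 0.422), with a 95% interval from -0.96 to 0.24.

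The BH3-only genes went both ways and held the widest range of the family. BMF (chromosome 1, 131178021 to 131199668), whose protein is held on the actomyosin cytoskeleton until stress or loss of attachment frees it, had 4.79 and 18.3 CPM in high G0/G1 cells, against 2.41 and 1.98 CPM in low G0/G1 cells. The counts behind these levels were 143 and 523 in high G0/G1 cells, against 77 and 57 in low G0/G1 cells. High replicate 2 was 3.83 times high replicate 1, yet both lay above the low libraries, which were close to each other. The log2 fold change was 2.40 ± 0.72 (SE, edgeR adjusted p = 0.190), the largest of the 10, with a 95% interval from 0.58 to 4.21. It was 1.13 without high replicate 2 and 3.05 without high replicate 1. Without high replicate 1 edgeR called it (adjusted p = 0.0302). DESeq2 called BMF with all 4 libraries (adjusted p = 0.0132) and without high replicate 1 (adjusted p = 1.3e-05), but not without high replicate 2 (adjusted p = 0.590), low replicate 1 (adjusted p = 0.0721) or low replicate 2 (adjusted p = 0.167).

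BCL2L11 (chromosome 3, 45156791 to 45202996) encodes BIM, an activator of BAX and BAK1 and a known target of FOXO transcription factors in other cell types. It had 27.8 and 97.8 CPM in high G0/G1 cells, against 36.7 and 14.7 CPM in low G0/G1 cells. The groups overlapped, since low replicate 1 lay above high replicate 1, and the libraries within each group differed by 3.52 times in high and 2.51 times in low. Its log2 fold change was 1.29 ± 0.72 (SE, edgeR adjusted p = 0.355), with a 95% interval from -0.53 to 3.11. Leaving out high replicate 2 gave 0.11, leaving out low replicate 2 gave 0.80, leaving out high replicate 1 gave 1.92 and leaving out low replicate 1 gave 2.17. DESeq2 called BCL2L11 only without high replicate 1 (adjusted p = 0.00545), among its fits with all 4 or with 3 libraries.

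BID (chromosome 5, 69849007 to 69874647), which links death receptors to mitochondria once caspase 8 cleaves it, had 30.9 and 19.4 CPM in high G0/G1 cells, against 57.6 and 49.9 CPM in low G0/G1 cells. Both high libraries were well below both low ones. The log2 fold change was -1.10 ± 0.30 (SE, edgeR adjusted p = 0.176), with a 95% interval from -1.85 to -0.34. It was -1.48 without high replicate 1, where edgeR called it (adjusted p = 0.0447). DESeq2 gave an adjusted p of 0.0407 with all libraries and 0.00199 without high replicate 1. With the others left out in turn it gave 0.242 (high replicate 2), 0.553 (low replicate 1) and 0.340 (low replicate 2).

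The remaining BH3-only members are classical p53 targets. PMAIP1 (chromosome 1, 161184458 to 161188138), which encodes NOXA, an antagonist of MCL1, had 5.67 and 9.05 CPM in high G0/G1 cells, against 4.48 and 3.67 CPM in low G0/G1 cells. The groups did not overlap, and its log2 fold change was 0.85 ± 0.43 (SE, edgeR adjusted p = 0.315). BBC3 (chromosome 6, 53037103 to 53046902), which encodes PUMA, had 12.6 and 7.26 CPM in high G0/G1 cells, against 10.3 and 3.22 CPM in low G0/G1 cells. Here low replicate 1 lay between the high libraries, and the log2 fold change of 0.55 ± 0.64 (SE, edgeR adjusted p = 0.655) came to -0.044 without low replicate 2 and 1.68 without low replicate 1.

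**Figure D2:**
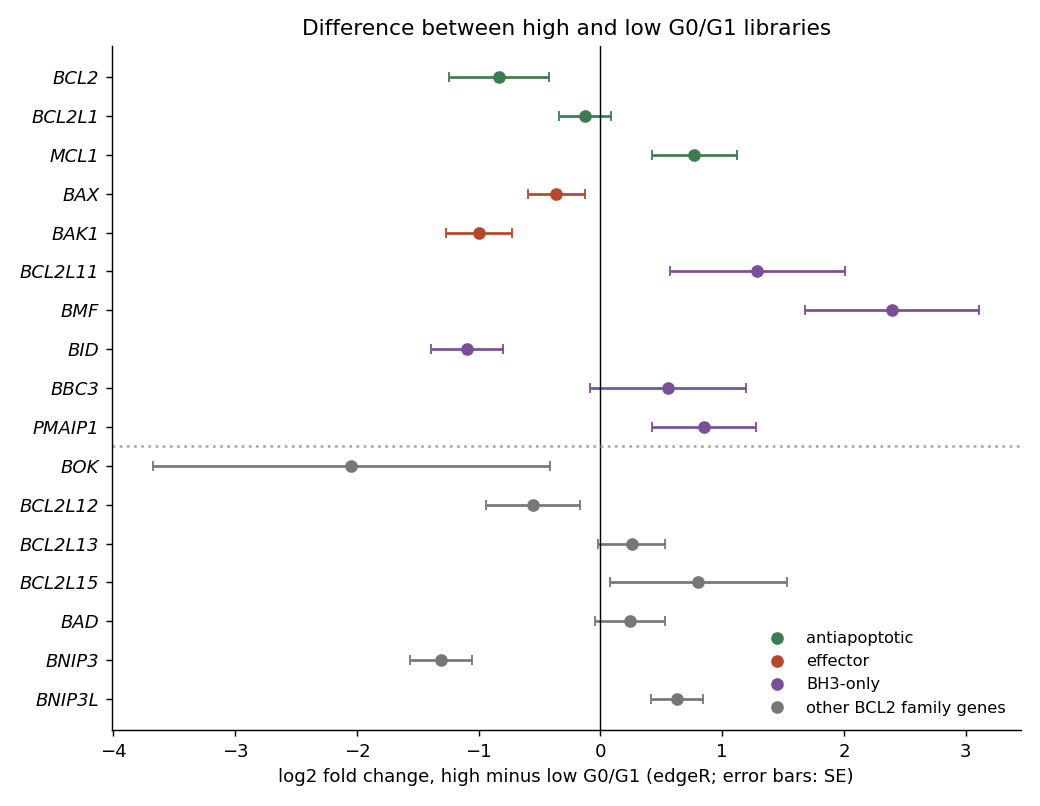
Log2 fold change, high minus low G0/G1, of the 10 genes by class and, under the dotted line, of the 7 other BCL2 family genes tested. Points are edgeR estimates and error bars are standard errors. BMF at 2.40 and BOK at -2.05 lie at the 2 ends, with standard errors of 0.72 and 1.63.

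Read by library, the family showed a pattern that the group labels only partly follow. High replicate 2 held the highest level of 3 members (BCL2L11, BMF and PMAIP1) and the lowest of 4 (BCL2, BAX, BAK1 and BID). Low replicate 2 held the lowest level of 5 members, all 5 of those with a positive log2 fold change. Low replicate 1 was lowest for 0 members and highest for BAX, BAK1 and BID. Levels in both high libraries exceeded those in both low libraries for 3 members (MCL1, BMF and PMAIP1) and were under them for 5 (BCL2, BCL2L1, BAX, BAK1 and BID). Over all genes tested these shares were 26.8% and 29.8%, together 56.6%.

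**Figure D3:**
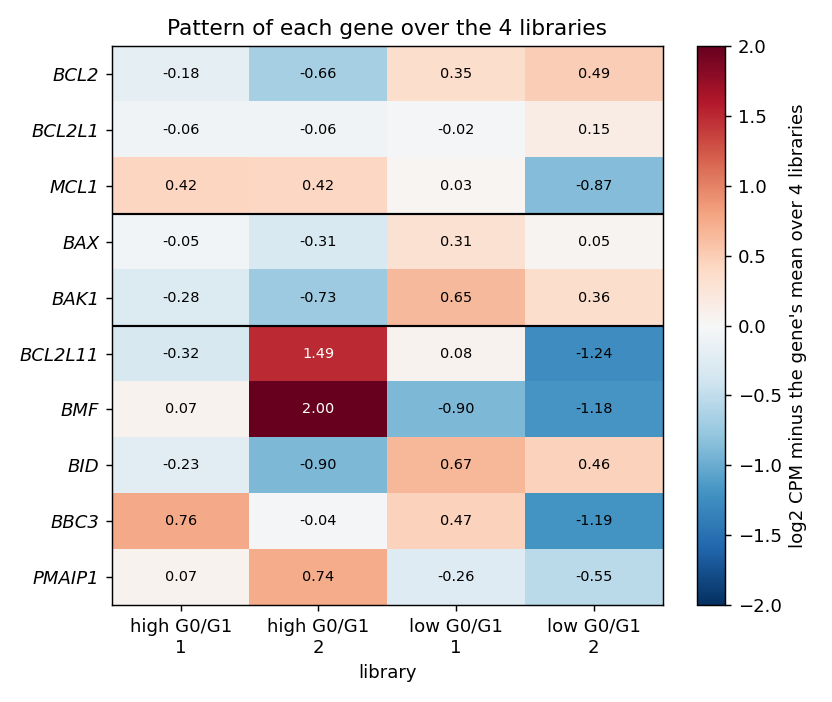
Log2 CPM of each of the 10 genes minus its own mean over the 4 libraries, with libraries in columns and genes in rows, and lines between the antiapoptotic, effector and BH3-only genes. Red is above and blue below the gene's mean; the strongest red is BCL2L11 and BMF in high replicate 2.

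The spread within a group exceeded counting error for most members. The 95% Poisson intervals of the 2 high libraries did not meet for 7 of 10 members, and those of the 2 low libraries did not meet for 6. These intervals cover counting error only. The median gap between the 2 high libraries was 0.58 on the log2 scale over the members, against 0.42 over all genes tested. For the 2 low libraries the medians were 0.28 and 0.29. The gap within high exceeded the difference of the group means in 2 members, BCL2L11 and BBC3, and the gap within low did so in 4, BCL2L1, MCL1, BCL2L11 and BBC3. The absolute difference of the group means had a median of 0.84 over the members and of 0.47 over all genes tested. Since the members were chosen with earlier results of these data known, these medians cannot show that the family differs more than other genes.

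Ratios of members within a library do not depend on library scaling. They were computed on raw counts after the values were seen, for 3 pairs, and are compared between libraries only, since gene length differs. BAX had 7.81 and 9.14 counts per BCL2 count in high G0/G1 cells, against 6.92 and 5.23 in low G0/G1 cells. This ratio was higher in both high libraries even though BAX itself was lower in them, as BCL2 was lower still. It rests on 122 and 83 BCL2 counts in the high libraries and on 189 in each low one. Its counting error was not computed, so the step from 6.92 to 7.81 may lie within that error. BCL2L11 counts came to 5.27% and 18.6% of MCL1 counts in high G0/G1 cells, against 9.12% and 6.82% in low G0/G1 cells. Here high replicate 1 held the lowest value of all and high replicate 2 the highest. BMF counts came to 15.5% and 94.7% of BID counts in high G0/G1 cells, against 4.19% and 3.96% in low G0/G1 cells, a separation of the groups that rests on genes picked for opposite directions.

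Of 13 other BCL2 family genes, 11 had a row and 7 were tested, with 4 higher and 3 lower and a median log2 fold change of 0.24. By edgeR 0 passed after adjustment, and 1 was higher and 1 lower at an unadjusted p under 0.05 (20.7% of all genes tested in either direction). DESeq2 called 1, BNIP3, beside 11.3% of the genes to which it gave an adjusted p. BNIP3 and BNIP3L, related receptors that mark mitochondria for autophagy and carry BH3-like sequences, differed in opposite directions. BNIP3 had 74.2 and 98.3 CPM in high G0/G1 cells, against 238 and 188 CPM in low G0/G1 cells. Its log2 fold change was -1.31 ± 0.26 (SE), at an adjusted p of 0.153 by edgeR and of 0.00309 by DESeq2. BNIP3L had 198 and 160 CPM in high G0/G1 cells, against 116 and 116 CPM in low G0/G1 cells, with a log2 fold change of 0.63 ± 0.21 (SE, edgeR adjusted p = 0.208). Neither group overlapped the other in these 2 genes.

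The effector relative BOK was not counted in high replicate 1 and had 1.93 CPM in high replicate 2, against 2.60 and 5.37 CPM in the low libraries. A count of 0 there allows up to 0.101 CPM. BAD, a BH3-only protein inactivated by AKT through phosphorylation, had 31.0 and 23.3 CPM in high G0/G1 cells, against 19.3 and 26.6 CPM in low G0/G1 cells, and the groups overlapped. BCL2L13, a mitochondrial relative, had 128 and 196 CPM in high G0/G1 cells, against 126 and 145 CPM in low G0/G1 cells. BCL2L12 had 13.1 and 7.09 CPM in high G0/G1 cells, against 14.3 and 15.4 CPM in low G0/G1 cells. BCL2L15 ran from 0.721 to 3.15 CPM with overlapping groups. BCL2A1 reached 17 counts at most, and BCL2L10, BCL2L14 and HRK had 1 count in a single library each, so none of these 4 was tested.

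Around the family, 59 genes of apoptosis were tested in 7 lists, and they were split as evenly, with 29 higher and 30 lower and a median log2 fold change of -0.0049. By edgeR 0 passed after adjustment. At an unadjusted p under 0.05, 10 were higher and 6 lower, beside 9.92% and 10.8% of all genes tested. DESeq2 called 5 higher and 4 lower, beside 5.79% and 5.48% of the genes to which it gave an adjusted p. Of 7 genes of the apoptosome and caspases 3 were higher and 4 lower. CASP2, an initiator caspase, had 75.9 and 62.7 CPM in high G0/G1 cells, against 145 and 156 CPM in low G0/G1 cells, and DESeq2 called it (adjusted p = 0.00240; edgeR adjusted p = 0.151). CYCS, cytochrome c, overlapped between groups with a log2 fold change of -0.89.

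Inhibitors of apoptosis and their antagonists had 2 of 6 members higher. XIAP, which blocks caspases, had 77.6 and 68.7 CPM in high G0/G1 cells, against 49.8 and 49.5 CPM in low G0/G1 cells. DIABLO, which is released from mitochondria and displaces XIAP from caspases, had 41.4 and 37.5 CPM in high G0/G1 cells, against 60.6 and 67.5 CPM in low G0/G1 cells. These 2 genes had log2 fold changes of 0.56 and -0.70. BIRC5 encodes survivin, which also acts in mitosis. It had 41.2 and 7.86 CPM in high G0/G1 cells, against 97.5 and 98.2 CPM in low G0/G1 cells. DESeq2 called BIRC5 (adjusted p = 0.0415) but neither XIAP (adjusted p = 0.151) nor DIABLO (adjusted p = 0.0951). Of 10 mitochondrial partners 3 were higher and 7 lower. The examples with the smallest p were TMBIM6, known as BAX inhibitor 1, with a log2 fold change of 0.60, the outer membrane channel VDAC3 with -0.41 and AIFM1, apoptosis inducing factor, with -0.55.

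Among 10 genes of protein stability and sequestration 5 were higher and 5 lower. The dynein light chain gene DYNLL1, whose protein binds BIM, had 132 and 89.2 CPM in high G0/G1 cells, against 213 and 214 CPM in low G0/G1 cells (log2 fold change -0.95, DESeq2 adjusted p = 0.0415). The kinase gene MAPK8, which encodes JNK1, had 88.6 and 98.6 CPM in high G0/G1 cells, against 54.7 and 31.2 CPM in low G0/G1 cells (log2 fold change 1.12, DESeq2 adjusted p = 0.0405). PIM1, a kinase that phosphorylates BAD, had a log2 fold change of 1.10. The transcription factors that induce BH3-only genes, listed with their p53 partner TP53INP1, had 6 of 8 tested members higher. FOXO3 had 127 and 96.0 CPM in high G0/G1 cells, against 75.7 and 62.5 CPM in low G0/G1 cells. TP53INP1 and FOXO1 had log2 fold changes of 1.50 and 1.30 and were the 2 members DESeq2 called higher.

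In the list of p53 regulation 7 of 10 members were higher, with a median log2 fold change of 0.68. PERP, a p53-induced membrane protein, had 53.7 and 56.0 CPM in high G0/G1 cells, against 32.4 and 21.0 CPM in low G0/G1 cells. PPM1D, a phosphatase that restrains p53, had 44.7 and 39.2 CPM in high G0/G1 cells, against 28.4 and 16.2 CPM in low G0/G1 cells. SESN1 had a log2 fold change of 1.78, and DESeq2 called SESN1 and PERP. In the death receptor branch 3 of 8 members were higher. CFLAR, the inhibitor of caspase 8, had 73.0 and 105 CPM in high G0/G1 cells, against 47.8 and 61.2 CPM in low G0/G1 cells. FAS had 3.32 and 8.46 CPM in high G0/G1 cells, against 12.1 and 8.49 CPM in low G0/G1 cells. TNFRSF1A overlapped between groups, with 171 CPM in high replicate 2 and between 63.7 and 71.8 CPM in the other libraries.

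The genes most like BAK1 in their course over the 4 libraries were TRAF2, TAF5 and DUS4L, by the root mean square distance of centred log2 CPM. The distances were 0.024, 0.025 and 0.025 on the log2 scale, over 4 libraries and 11600 candidate genes. TRAF2 had 32.9 and 24.1 CPM in high G0/G1 cells, against 63.5 and 53.3 CPM in low G0/G1 cells. With 4 libraries and so many candidates, close matches of this kind describe only these libraries.

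**Figure D4:**
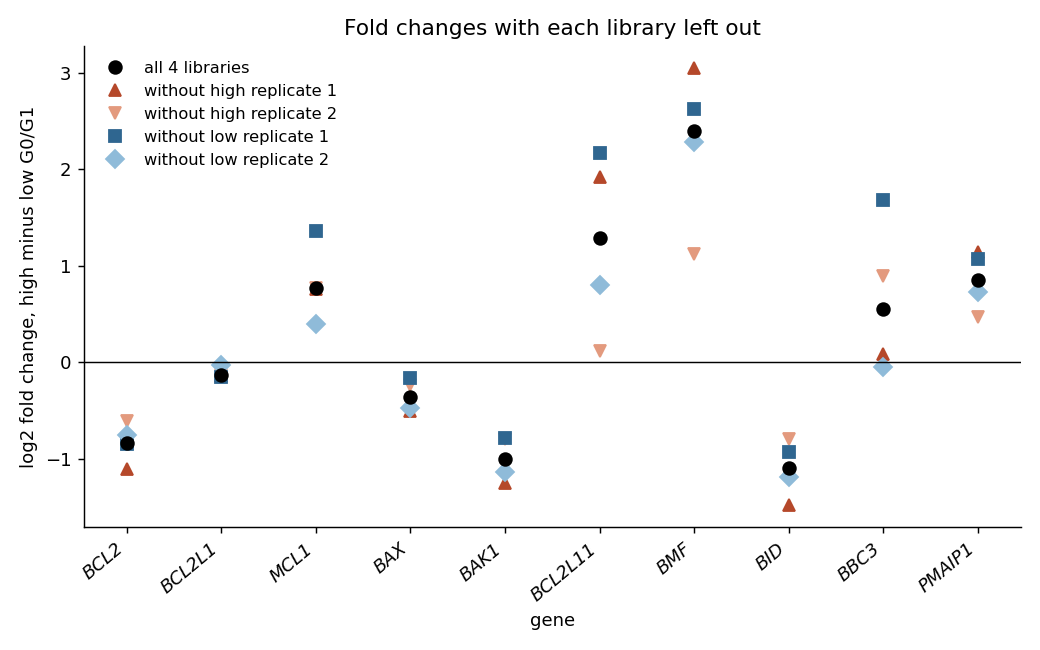
Log2 fold change, high minus low G0/G1, of each of the 10 genes from edgeR with all 4 libraries and with each library left out in turn. BAK1, BID, BAX and BCL2 lie below 0 and BMF, MCL1, BCL2L11 and PMAIP1 above it in all 5 fits, while BBC3 comes to -0.044 without low replicate 2.

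Leaving out libraries moved the size of the differences in several members. In the 8 members whose groups do not overlap, leaving out a library can turn the sign only if the library scaling changes with it. Their unchanged sign is therefore no sign of stability. BCL2L1 came closest to a turn, at -0.030 without low replicate 2 by edgeR. Of the 2 members whose groups overlap, BBC3 changed sign and BCL2L11 did not. BCL2L11 ranged from 0.11 to 2.17 and BMF from 1.13 to 3.05, while BAK1 stayed between -1.25 and -0.78 and BID between -1.48 and -0.80. All 5 members with a positive log2 fold change had their lowest level in low replicate 2, the library with most stromal and theca RNA by marker sums. The part of that RNA in the result was not tested, and without low replicate 2 the values were 2.28 for BMF, 0.80 for BCL2L11, 0.73 for PMAIP1, 0.40 for MCL1 and -0.044 for BBC3. In RefSeq the spans of 5 members overlap another gene. BAK1, with 3607 counts over the 4 libraries, lies wholly within the span of a long noncoding RNA that had 513, and BID, with 4750, shares 11050 bases with one that had 431. The strand setting of the counting was not stated, so how reads of such pairs were shared out is unknown.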

How the data were processed

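RNA sequencing of 4 porcine granulosa cell libraries was analysed, 2 with a high and 2 with a low G0/G1 share, grouped by their labels and numbered in the order they are listed. The authors deposited whole-number read counts per gene symbol. Reads were aligned with HISAT2 to Sscrofa11.1, per the submitters' processing notes. For the counter, the annotation release and the strand setting nothing is stated. Of the symbols, 29862 matched RefSeq of Sscrofa11.1, which gave coordinates, and 22 mitochondrial RNA names did not.

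High was compared with low in edgeR 4.0.16 (R 4.3.3; filterByExpr at 10 counts and a total of 15, TMM, glmQLFit and glmQLFTest, no covariate), with Benjamini-Hochberg adjustment over 14352 genes and a threshold of 0.05. Residual degrees of freedom were 2 and prior ones 3.20. Standard errors are the size of the log2 fold change divided by the square root of F, and 95% intervals use them, unadjusted for many genes. Log2 CPM uses a prior count of 2. DESeq2 1.42.0, edgeR's likelihood ratio test, limma 3.58.1's voom, other scalings, no filter and each library left out were the alternatives. The test was checked on simulated data, where only the recovery of changes larger than those of the members was required. Its power at the size of the members' differences is not reported here. 

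The 10 members and all lists were chosen with earlier results of these data known. Named are the members, other family genes with a count, up to 3 genes per pathway list with the smallest p and a mean log2 CPM of at least 1, and the 3 genes whose pattern is nearest to the member with the smallest p. A count of 0 was read as up to 3 counts. Genes on the lists without a row of that symbol were not analysed here. A listed gene that the naming rule takes is not reported here.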

Additional observations from a re-analysis of the deposited data

How the results depend on the processing

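Over 14 alternatives the 10 members gave 140 log2 fold changes, of which 128 kept direction and call, 10 kept direction and passed the threshold, and 2 changed sign. These 2 were BBC3 without low replicate 2, at -0.044 with edgeR and -0.074 with DESeq2, while edgeR gave 1.68 without low replicate 1. RLE size factors, library totals alone and limma-voom each called 0 genes, as the quasi-likelihood test did at 1424 genes higher and 1553 lower by unadjusted p. Without the low-count filter 2 genes were called higher and 3 lower, 0 of them members. DESeq2 called 767 genes higher and 725 lower, 1 and 2 members, 0 and 1 other family genes, and 5 and 4 pathway genes. The likelihood ratio test called 557 and 534 genes, 1 and 0 members, 0 and 1 other family genes, and 3 and 1 pathway genes. With a library left out, edgeR called 0 to 363 genes higher and 0 to 591 lower, 0 to 1 members in either direction, and 0 to 3 pathway genes higher and 0 to 2 lower, all without high replicate 1. DESeq2 without high replicate 1 called 982 genes higher and 1261 lower, 2 and 2 members, and 10 and 6 pathway genes. Without high replicate 2 it called 391 and 470 genes, 0 and 0 members, 0 and 2 other family genes, and 4 and 3 pathway genes. Without low replicate 1 it called 315 and 115 genes and 4 and 0 pathway genes, and without low replicate 2 it called 202 and 141 genes and 0 pathway genes, with 0 members in both. The cause was not tested. With 1 library left out the lone library of a group is assumed to vary like the others. No paired analysis was made because the labels state no pairing of libraries. They also give no replicate numbers. The titles of high replicate 2 and low replicate 2 share a letter whose meaning is not explained. Depth limits BCL2, PMAIP1, BMF and BBC3 most, the members with the fewest counts over the 4 libraries.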
